A study of Mus musculus with 18 samples.

Results

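The chaperones of the endoplasmic reticulum (ER) are the proteins that fold newly made secretory and membrane proteins inside this compartment. The set described here was given as 10 gene symbols, Hspa5, Hsp90b1, Creld2, Pdia4, Pdia6, Dnajb11, Sdf2l1, Hyou1, Calr and Manf, and a probe belonged to it when the platform annotation gave it one of these symbols. Of the 10 genes, 8 had a probe, among 16593 gene symbols with a probe in all. Creld2 had 2 probes and the other 7 had 1 each, which makes 9 probes. Dnajb11 and Sdf2l1 were matched by no annotated probe and their levels were not analysed here.

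The samples were 18 Illumina bead arrays, where each probe's brightness rises with the amount of its transcript. Lung RNA came from male mice of C57BL/6 background, 8 to 12 weeks old, either wild type (WT) or lacking interleukin-4 (KO), kept for 4 days in 10% oxygen (hypoxia) or in room air (normoxia). Each of these 4 groups had 3 animals, 1 array per animal, named WT normoxia, WT hypoxia, KO normoxia and KO hypoxia. Pulmonary microvascular endothelial cells (PMVEC) from female wild-type C57BL/6 mice aged 4 to 6 weeks, at passages 3 to 5, received recombinant interleukin-4 (rIL-4) at 50 ng/mL or vehicle for 24 h, with 3 arrays each. Interleukin-4 is known as a signal of T helper 2 cells. The labels do not say whether the PMVEC arrays held separate cultures, so p-values for these cells cover the spread between arrays only.

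When unfolded proteins accumulate in the ER, sensors in its membrane start the unfolded protein response, which raises transcription of the chaperone genes. Hspa5 encodes BiP, the Hsp70 of the ER, which binds unfolded chains and also holds the sensors inactive. The transcription factors ATF6 and XBP1, acting with NF-Y, recognise a promoter motif called the ER stress element. Secretory cells of the lung, such as alveolar type 2 cells and plasma cells, depend on this machinery.

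RefSeq promoter windows (GRCm38.p6, 250 bases before to 50 after the start of a gene) were in hand for 8 of the 10 genes. Hyou1 and Manf were not among them. The windows were searched on both strands for the ER stress element, spelled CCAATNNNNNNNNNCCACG. It was present for 5 of the 8, Hspa5, Hsp90b1, Creld2, Pdia6 and Calr, and in 39 of 32851 promoters of the whole table (0.119%). The stretches around these matches are shown because the motif is a shared feature of the 5 genes. The response described above acts on chaperone genes through this element, so finding it in chosen chaperones is not separate evidence. Each is written 5′ to 3′ on the strand of its gene, with the match in capitals and 20 further bases on either side.
Hspa5 (chr2:34772005-34772063, + strand): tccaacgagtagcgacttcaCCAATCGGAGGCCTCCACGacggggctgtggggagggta
Hsp90b1 (chr10:86705513-86705676, - strand): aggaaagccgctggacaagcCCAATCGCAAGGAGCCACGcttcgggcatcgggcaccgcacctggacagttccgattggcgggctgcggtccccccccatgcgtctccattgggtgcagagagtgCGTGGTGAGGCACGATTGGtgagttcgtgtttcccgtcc
Creld2 (chr15:88819500-88819558, + strand): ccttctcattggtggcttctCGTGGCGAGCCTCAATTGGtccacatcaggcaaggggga
Pdia6 (chr12:17266471-17266529, + strand): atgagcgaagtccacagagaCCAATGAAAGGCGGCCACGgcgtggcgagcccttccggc
Calr (chr8:84847055-84847113, - strand): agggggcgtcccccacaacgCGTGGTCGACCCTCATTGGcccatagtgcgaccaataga

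In Hspa5 and Pdia6 the motif read along the gene's own strand, and it began 65 and 98 bases before the start of the gene. In Creld2 and Calr it read on the opposite strand, so that the capitals show its reverse complement. Hsp90b1 held 2 matches, 1 on each strand. The Creld2 match also lay in the window of the neighbouring gene Alg12, which encodes a mannosyltransferase of N-glycan assembly, and the Calr match also lay in that of 1700122E12Rik. A second form of the element, ATTGGNCCACG, was in 12 of 32851 promoters (0.0365%) and, among the chaperone genes, in Dnajb11 only. The windows of Pdia4 and Sdf2l1 held neither string. A match is a string of letters and not a measured binding site.

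All 9 probes were detected on 12 of 12 lung arrays. The Il4 probe, read first as a check of the genotype, lay between 7.25 and 8.26 on the log2 scale in the 6 wild-type arrays and was at most 5.86 in the 6 knockout arrays, where it was still detected on 4. Its place relative to the deletion is not stated in the sources used here. Across lung arrays 60.2% to 64.2% of probes were detected, and across PMVEC arrays 45.1% to 46.9%. Markers of liver cells stood higher in KO normoxia than in any other lung group, and neutrophil markers stood high on WT normoxia 1 and WT normoxia 2. The values are given beside the results they touch. In whole lung, fewer cells of a type and less RNA per cell cannot be told apart.

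The chaperone genes stood highest in the lungs of wild-type mice in room air. For every one of the 8 genes the brightest of the 12 lung arrays was WT normoxia 2 (6 genes) or WT normoxia 3 (2 genes). For 4 of the 8, Hspa5, Creld2, Hyou1 and Pdia4, all 3 WT normoxia arrays lay above all 9 others, against 4.3% of the 12571 genes tested in lung. The genes were chosen with earlier results of these data known. Shares over all genes, here and below, are therefore a description and not separate evidence for the set. Levels are given below as normalized log2 signals, and levels of different probes are not comparable with each other.

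**Figure D1:**
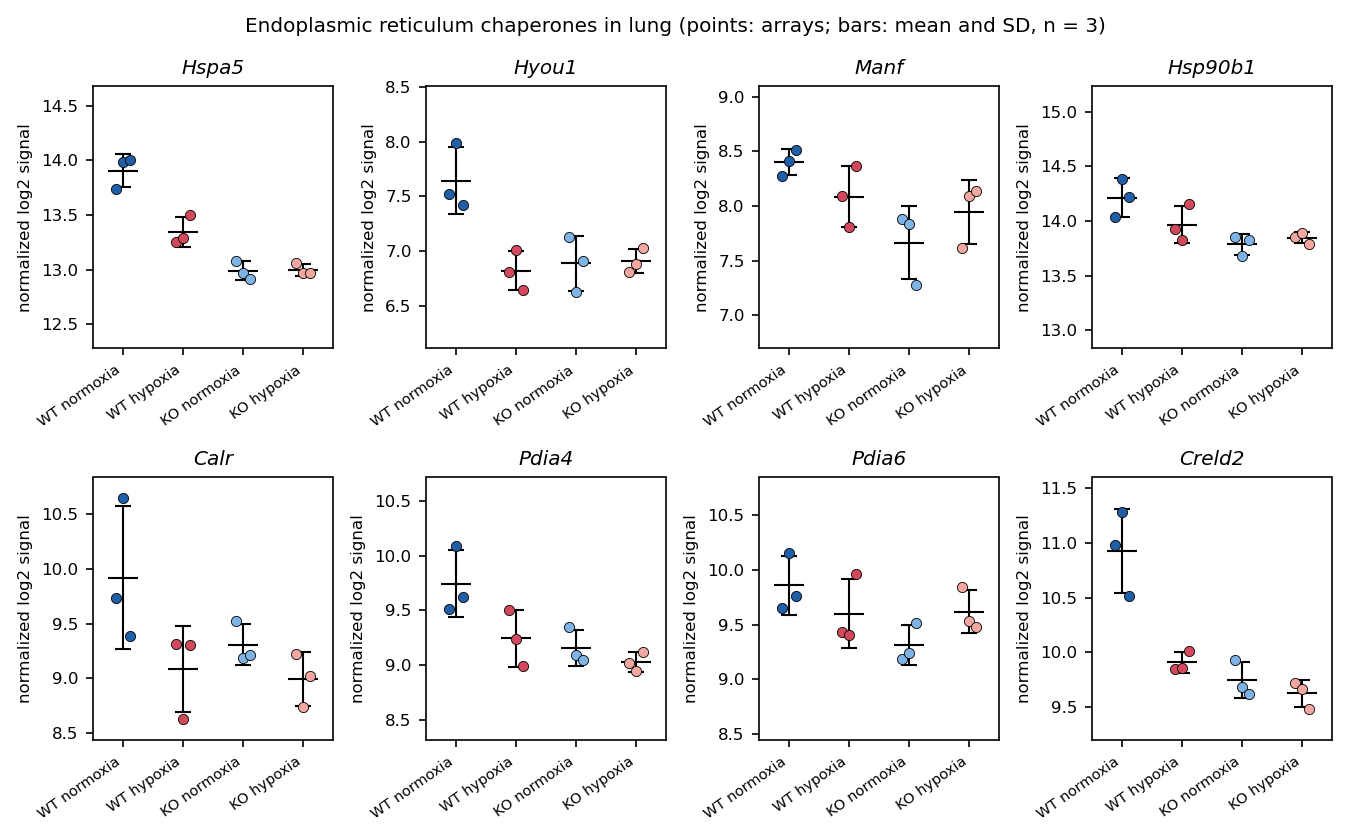
Normalized log2 signal of the 8 measured chaperone genes (vertical axis, the same span of 2.4 log2 units in each panel) in the 4 lung groups, with 1 point per array and the mean ± SD of 3 arrays as a bar. In the panels for Hspa5, Hyou1, Creld2 and Pdia4, the 3 WT normoxia points lie above the 9 others, whereas those of Calr, Hsp90b1, Manf and Pdia6 reach into the range of the other groups.

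Hspa5 (probe ILMN_1255561) measured 13.73, 13.98 and 14.002 on the WT normoxia arrays, against 13.25, 13.29 and 13.50 under hypoxia. In the knockout it measured 13.08, 12.97 and 12.92 in room air and 13.06, 12.97 and 12.97 under hypoxia. The wild-type arrays thus form 2 levels that do not overlap, both above all 6 knockout arrays, and the knockout arrays of both conditions fall together. Group means ± SD (n = 3) were 13.91 ± 0.15 for WT normoxia, 13.35 ± 0.13 for WT hypoxia, 12.99 ± 0.09 for KO normoxia and 12.998 ± 0.05 for KO hypoxia.

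Hyou1 encodes the large Hsp110-type partner that helps BiP release its nucleotide. Wild-type values were 7.52, 7.99 and 7.42 in room air and 6.81, 7.00 and 6.64 under hypoxia, and knockout values were 7.13, 6.63 and 6.91 in room air and 6.81, 6.88 and 7.03 under hypoxia. Unlike Hspa5, it separated WT normoxia from 3 groups that overlapped one another. Manf, a small ER-resident protein that binds BiP and can be secreted, measured 8.28, 8.41 and 8.51 in room-air wild types and 8.09, 7.80 and 8.36 in hypoxic ones. The knockout values of Manf were 7.88, 7.84 and 7.28 in room air and 7.61, 8.09 and 8.14 under hypoxia. Both knockout groups of Manf lay wholly below WT normoxia, and WT hypoxia overlapped every other group.

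Creld2, an ER stress-induced protein with disulphide isomerase activity, had 10.98, 11.29 and 10.52 on the room-air wild-type arrays, against 9.85, 9.86 and 10.01 on the hypoxic ones. Its KO normoxia arrays measured 9.93, 9.68 and 9.62, and its KO hypoxia arrays 9.72, 9.66 and 9.48. WT normoxia stood apart from the 9 other arrays, which lay close together. The other Creld2 probe (ILMN_2983948) ran from 10.12 to 10.61 in WT normoxia and from 9.18 to 9.70 on the 9 other arrays, with the same separation.

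Among the protein disulphide isomerases, which form and rearrange disulphide bonds, Pdia4 measured 9.52, 10.09 and 9.63 in WT normoxia and between 8.95 and 9.51 on the other 9 arrays, so that the gap was very narrow. Pdia6 had group means of 9.86 ± 0.27 for WT normoxia, 9.60 ± 0.32 for WT hypoxia, 9.31 ± 0.18 for KO normoxia and 9.62 ± 0.20 for KO hypoxia (SD, n = 3). Only KO normoxia was free of overlap with WT normoxia for Pdia6.

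Hsp90b1, the ER form of Hsp90 (GRP94), had group means of 14.22 ± 0.18, 13.97 ± 0.17, 13.79 ± 0.10 and 13.85 ± 0.05 in the order WT normoxia, WT hypoxia, KO normoxia and KO hypoxia. KO normoxia and KO hypoxia lay below all 3 WT normoxia arrays. Calr, the calcium-binding lectin chaperone calreticulin, had 9.73, 10.65 and 9.39 in WT normoxia, a spread of 0.65 (SD, n = 3) that was the widest in the set. The lowest of these 3 lay within the range of KO normoxia, 9.19 to 9.52. WT hypoxia ran from 8.63 to 9.31 and KO hypoxia from 8.74 to 9.22.

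The first comparison asks what hypoxia did in wild-type lung. Hspa5, Creld2 and Hyou1 fell, and no member rose. Creld2 fell by 1.02 ± 0.17 on the log2 scale (SE, n = 3 per group), to 49.3% of its WT normoxia signal, with an adjusted p of 0.0024 in limma. Hyou1 fell by 0.82 ± 0.17 to 56.5% (adjusted p = 0.0089, limma) and Hspa5 fell by 0.56 ± 0.12 to 67.8% (adjusted p = 0.0081, limma). These 3 of 8 genes compare with 4.32% of all 12571 genes that passed in the lower direction. For 5 of 8 genes all WT hypoxia arrays lay below all WT normoxia arrays, against 13.3% of all genes.

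The other 5 did not pass, though all had estimates below 0. For Calr the change was -0.84 ± 0.28 and for Pdia4 -0.50 ± 0.17, each with an adjusted p of 0.080 in limma and no overlap between the groups. Hsp90b1 (-0.25), Manf (-0.31) and Pdia6 (-0.26) had adjusted p-values between 0.25 and 0.43, with overlap. The median over the 8 genes was -0.53, beside a median over all genes tested of 0.00 to 2 decimals, and 50.1% of all genes lay below 0. Hspa5, Creld2 and Hyou1 passed on leaving out each of the 12 lung arrays in turn. Adding the mean level of the hepatocyte list as a covariate left them at -0.55, -0.93 and -0.75, with adjusted p-values of 0.015, 0.0042 and 0.017 in limma. This is a weak check, because 0 of 37 hepatocyte markers passed in this comparison. Their mean deviation was -1.32 to -0.46 in WT normoxia and -1.63 to -1.03 in WT hypoxia, beside 1.14 to 3.34 in KO normoxia. Levels of the other marker lists were not used as covariates.

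Neutrophil markers fell in the same comparison, in 5 of 8 measured genes, among them Cxcr2 (-2.28, adjusted p = 0.031, limma), a chemokine receptor, and S100a8 (-1.99, adjusted p = 0.030, limma), a calcium-binding protein of neutrophil granules and cytosol. The summed log2 level of the 8 markers ran from 67.8 to 90.3 over the WT normoxia arrays, 66.7 to 67.4 over WT hypoxia, 68.7 to 72.4 over KO normoxia and 68.5 to 70.9 over KO hypoxia, and Camp was detected on none of the WT hypoxia arrays. The mean deviation of the list was 2.31 and 1.15 on WT normoxia 1 and 2 but -0.50 on WT normoxia 3. The WT hypoxia arrays were at -0.63 to -0.55. The mean deviation of the chaperone genes was 0.35, 0.79 and 0.35 on WT normoxia 1, 2 and 3. Heart and skeletal muscle markers, 8 genes, also ran higher in WT normoxia (mean deviation 0.75 to 1.33) than in WT hypoxia (-0.91 to 0.68), KO normoxia (-0.15 to 0.37) and KO hypoxia (-3.17 to 0.63). None of these 8 passed. Of 10 alveolar type 2 markers 1 was lower, Etv5 (-0.59, adjusted p = 0.029, limma), with a median of the list of -0.17. Their mean deviation was 0.06 to 0.12 in WT normoxia and -0.30 to -0.05 in WT hypoxia. Other lists also moved under hypoxia in wild type: 6 of 10 fibroblast markers were higher (median of the list 1.21), as were 4 of 7 monocyte and macrophage markers (0.78), 3 of 7 smooth muscle markers (0.44) and 3 of 7 plasma cell markers (0.53), and 4 of 14 endothelial markers were lower and 1 higher (-0.23). Among the 3 plasma cell markers was Fkbp11, which is also in the list of other ER folding genes below. Its change of 0.53 was the median of the plasma cell list. Thy1 counts here as a fibroblast marker and below as a T cell marker. Beside these marker counts, 7.48% of all genes were higher and 4.32% lower under hypoxia in wild type. The part of neutrophils, muscle or any of these cell types in the chaperone result was not tested.

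**Figure D2:**
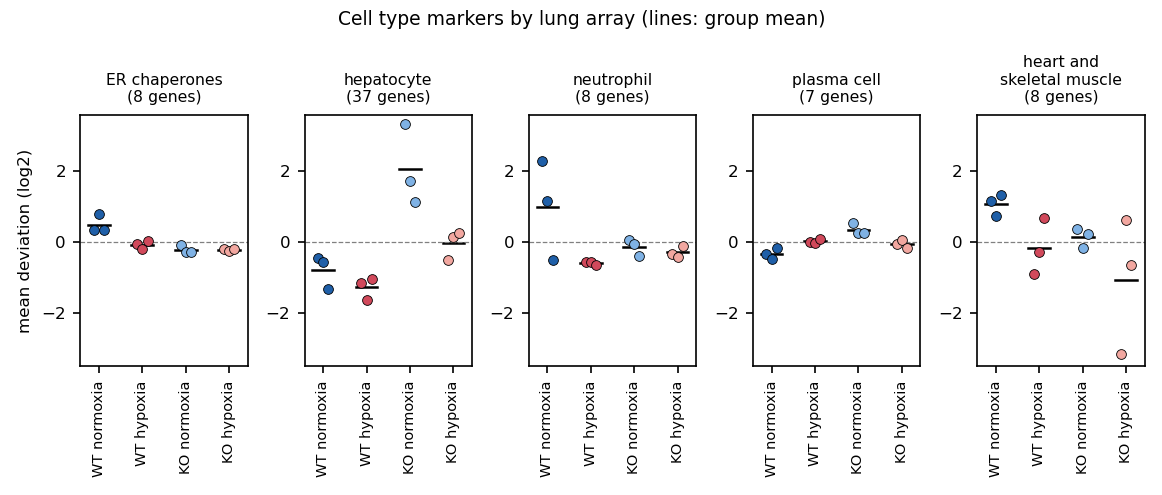
Mean deviation of marker lists from each gene's average over the 12 lung arrays (vertical axis, log2), 1 point per array, with a line at each group mean. The chaperone genes are raised on all 3 WT normoxia arrays, the neutrophil list on 2 of them, and the hepatocyte list on the 3 KO normoxia arrays, from 1.14 to 3.34.

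In the knockout lung none of the 8 genes passed between hypoxia and room air in limma, against 8.78% of all genes. At an unadjusted p under 0.05 the count was also 0 of 8, against 20.8% of all genes. Estimates ran from -0.31 for Calr to 0.30 for Pdia6, with 3 of 8 below 0 and a median of 0.01. For Hspa5 the 95% interval of the change was -0.24 to 0.26, which leaves out the fall of 0.56 estimated in wild type. The interval for Hyou1 was -0.36 to 0.39 and that for Creld2 -0.50 to 0.25, and neither holds the estimate of its wild-type counterpart. The knockout intervals of Calr (-0.93 to 0.30) and, at its very edge, Pdia4 (-0.50 to 0.24) do hold their wild-type estimates. Those of Hsp90b1 (-0.21 to 0.33), Manf (-0.15 to 0.71) and Pdia6 (-0.10 to 0.71) do not. The wild-type estimates have errors of their own, so these intervals do not test a difference between the genotypes. In this comparison 36 of 37 hepatocyte markers fell (median of the list -2.15), where 3.82% of all genes were lower. With the hepatocyte level as a covariate Hspa5, Creld2 and Hyou1 were at 0.07, 0.26 and 0.31. Calr moved from -0.31 to 0.20 and Manf from 0.28 to 0.80, and none of the 8 passed. The part of liver cells in these values was not tested.

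Whether the response to hypoxia differed between the genotypes was tested directly as an interaction. None of the 8 genes passed after adjustment in limma, where 0.0159% of all genes did. At an unadjusted p under 0.05 there were 3 of 8, against 12.4% of all genes. They were Creld2 (0.90 ± 0.24, adjusted p = 0.13), Hspa5 (0.57 ± 0.16, adjusted p = 0.15) and Hyou1 (0.84 ± 0.24, adjusted p = 0.15), each value being the knockout change minus the wild-type change on the log2 scale, with its SE. All 8 estimates were above 0, from 0.31 to 0.90. The interaction also uses the KO normoxia arrays, on which the hepatocyte markers stood high. With the hepatocyte level as a covariate Creld2, Hspa5 and Hyou1 were at 1.19, 0.62 and 1.07 and did not pass.

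**Figure D3:**
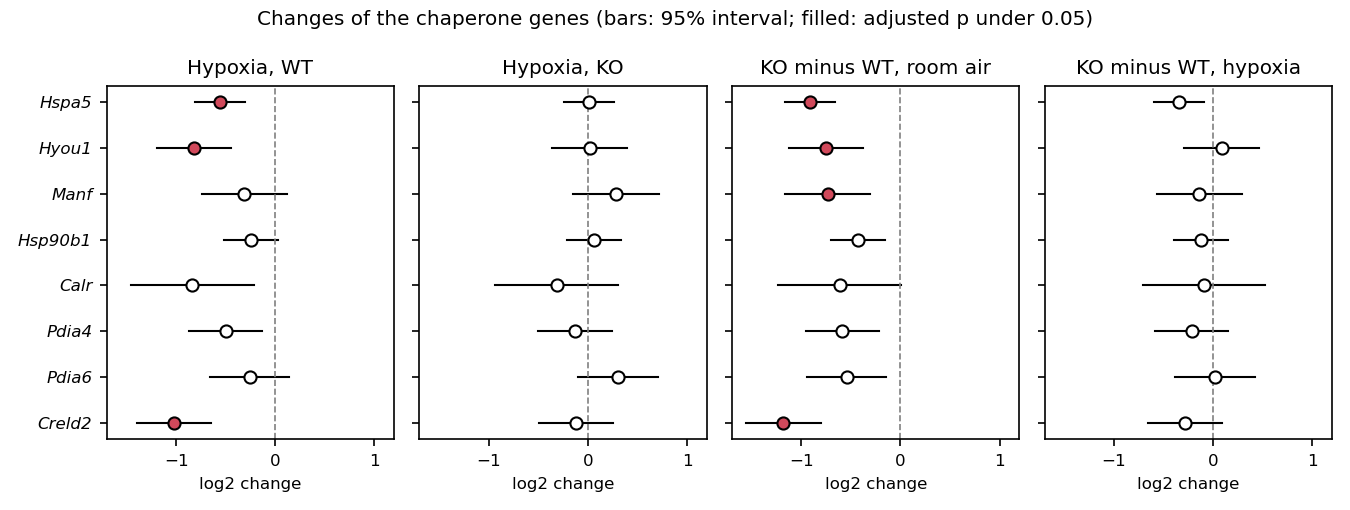
Log2 change (horizontal axis) of the 8 chaperone genes in 4 lung comparisons, with 95% intervals and filled points where the adjusted p was under 0.05. Filled points occur for 3 genes under hypoxia in wild type and for 4 genes between the genotypes in room air, all below 0.

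The next comparison sets the genotypes side by side in room air. It shares the WT normoxia arrays with the wild-type hypoxia comparison and with the interaction, so the 3 are not separate evidence. Knockout lungs had lower Hspa5, Creld2, Hyou1 and Manf, 4 of 8 genes, where 2.96% of all genes passed in that direction. Creld2 was at 44.1% of the wild-type signal (-1.18 ± 0.17, adjusted p = 0.0025, limma) and Hspa5 at 53.0% (-0.92 ± 0.12, adjusted p = 0.0015, limma). Hyou1 was at 59.3% (-0.75 ± 0.17, adjusted p = 0.021, limma) and Manf at 60.1% (-0.73 ± 0.20, adjusted p = 0.044, limma).

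Pdia4 (-0.59), Hsp90b1 (-0.43), Pdia6 (-0.54) and Calr (-0.61) did not pass, with adjusted p-values of 0.060, 0.062, 0.10 and 0.23 in limma. In 7 of 8 genes, all but Calr, every KO normoxia array was below every WT normoxia array, against 12.1% of all genes. The median of the 8 was -0.67, beside -0.02 over all genes. The second Creld2 probe gave -1.004 (adjusted p = 0.0023, limma, over all 17112 probes).

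Liver-cell genes moved with this comparison. Of 37 measured hepatocyte markers, 33 were higher in KO normoxia than in WT normoxia. Over all genes 4.09% were higher and 2.96% lower, which also applies to the marker counts that follow. Their summed log2 level ran from 274 to 306 over the WT normoxia arrays, 263 to 285 over WT hypoxia, 366 to 447 over KO normoxia and 305 to 333 over KO hypoxia. Hpd and Tat were detected on none of the arrays outside KO normoxia, and the Alb probe was detected on 1 of 12. Markers of plasma cells, a cell type rich in ER chaperones, had 3 of 7 higher in KO normoxia (Jchain, Mzb1 and Pou2af1). B cell markers had 6 of 8 higher (median of the list 0.96) and T cell markers 3 of 7 (0.62), while 2 of 7 smooth muscle markers were lower (-0.34). Of 10 alveolar type 2 markers 0 passed (-0.10). Neutrophil markers (0 of 8 passed, median of the list -1.07) and heart and skeletal muscle markers (0 of 8 passed, -0.83) also had medians below 0. The part of these cell types in the chaperone result was not tested. With the hepatocyte level as a covariate none of the 4 chaperone genes passed in limma. Hspa5 was at -1.001 (adjusted p = 0.21), Creld2 at -1.699 (adjusted p = 0.14), Hyou1 at -1.15 (adjusted p = 0.24) and Manf at -1.44 (adjusted p = 0.21). The same fit called 2 of 12571 genes in all against 886 without it. The mean deviation of the hepatocyte list was 1.14 to 3.34 in KO normoxia and at most 0.27 on all other lung arrays. The covariate thus overlaps with this comparison, and the fit cannot tell liver level and genotype apart. Leaving out KO normoxia 1 and 2 together, an alternative chosen after seeing the data, left 1 of 8 genes. The count was 2 without WT normoxia 2 and also 2 without KO normoxia 2.

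Between the genotypes under hypoxia, which does not use the WT normoxia arrays, none of the 8 genes passed in limma, where 0.0557% of all genes did. Hspa5 alone was under an unadjusted p of 0.05, 1 of 8 against 7.52% of all genes, at -0.35 ± 0.12 with an adjusted p of 0.43. All KO hypoxia arrays lay below all WT hypoxia arrays for 2 of 8 genes, Hspa5 and Creld2, against 6.33% of all genes. Estimates for the 8 genes ran from -0.35 to 0.09, with a median of -0.13.

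The 8 genes varied together across lung arrays. Pearson's r over the 12 arrays, which share the group differences, ran from 0.39 to 0.91 over the 28 pairs, with a median of 0.72. After the group means were taken out, 25 of 28 pairs were still positive, with a median of 0.37 and a range of -0.12 to 0.78. The 28 pairs share 8 genes and are not independent. Pairs of other genes were not set beside them, so the values are not shown to be particular to the chaperones. WT normoxia 2 stood highest, with a mean deviation over the 8 genes of 0.79 beside 0.35 on each of the other 2 arrays of its group. The other 9 arrays had mean deviations of -0.29 to 0.04.

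Genes outside the set were ranked by correlation with the mean of the 8 over the 12 lung arrays, as a description. Of the 10 closest, 3 were probes without a symbol, headed by ILMN_1233733 (r = 0.97). The named ones were Hspb1 (r = 0.95), a small heat shock protein, Fkbp4 (0.94) and Stip1 (0.94), co-chaperones of cytosolic Hsp90, Man2a1 (0.94), a Golgi mannosidase, Hspe1 (0.93), the mitochondrial co-chaperonin, Fgd5 (0.93), an endothelial exchange factor, and Hspb8 (0.93), another small heat shock protein. For 10 of 10 of these, all WT normoxia arrays were above the 9 others, against 4.3% of all genes. The ranking picked them for likeness to a mean that was itself highest in WT normoxia, so this count is not separate evidence.

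The cytosolic heat shock list, 19 measured genes, was set beside the chaperones because most of its proteins fold others outside the ER. It also holds the mitochondrial pair Hspd1 and Hspe1, and Cirbp and Rbm3, cold-inducible RNA-binding proteins that are not chaperones. In room air it was lower in the knockout in 10 of 19 genes and higher in 2, Cirbp and Rbm3, where 2.96% of all genes were lower and 4.09% higher. Hspb1 was at -2.16 (adjusted p = 0.00016, limma), Hsph1, an Hsp110 of the cytosol, at -1.99, Stip1 at -1.33 and Cirbp at 1.75. Under hypoxia in wild type 4 were higher, 2 of them Cirbp and Rbm3, and 3 lower, beside 7.48% and 4.32% of all genes. The inducible Hsp70 gene Hspa1a rose by 2.52 ± 0.43 (adjusted p = 0.0026, limma) its partner Dnajb1 by 1.31 and Rbm3 by 1.36, whereas Hspb1 fell by 1.65, Fkbp4 fell by 0.78 and Stip1 fell by 0.66. Its mean deviation by array ran from 0.10 to 0.40 for WT normoxia, 0.08 to 0.39 for WT hypoxia and -0.32 to -0.16 over both knockout groups. The chaperone genes had -0.20 to 0.04 in WT hypoxia. These are means, and that of the heat shock list includes the large rises of Hspa1a, Dnajb1 and Rbm3. By the median, the heat shock list changed by -0.28 under hypoxia in wild type, beside -0.53 for the chaperones, so both medians were below 0.

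**Figure D4:**
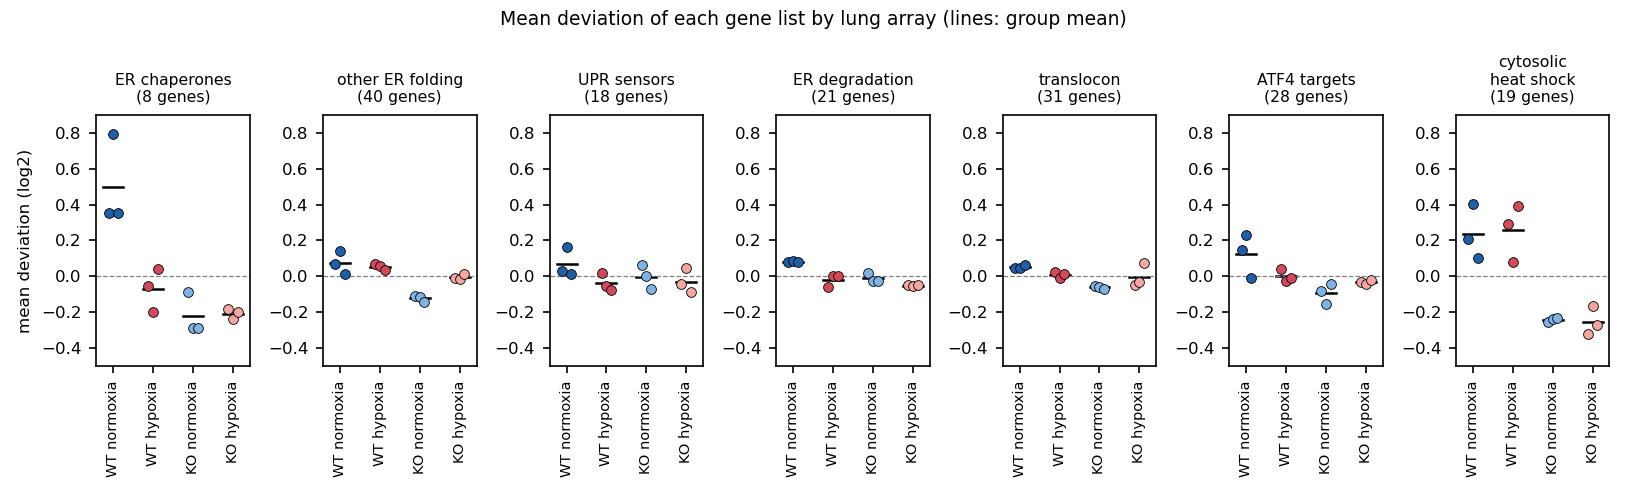
Mean deviation of 7 gene lists from each gene's average over the lung arrays (vertical axis, log2, the same scale in each panel), 1 point per array and a line at each group mean. The ER chaperones are high in WT normoxia only, with the 9 other arrays at 0.04 or below. The cytosolic heat shock list is high on all 6 wild-type arrays by its mean, though its median change under hypoxia there was -0.28. The other ER folding, sensor, degradation and translocon lists stay between -0.14 and 0.16. The degradation list also has its 3 WT normoxia arrays (0.08 to 0.09) above the 9 others, at a smaller size.

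Other genes of protein folding in the ER, 40 measured, had calls in both directions. Under hypoxia in wild type 3 rose and 4 fell, which is 7.5% and 10% of the list beside 7.48% and 4.32% of all genes. Among the risers were Ppic (0.90 ± 0.10), a prolyl isomerase, and Prdx4 (0.70 ± 0.09), a peroxidase that drives disulphide formation. Among those that fell were Fkbp14 (-0.81), a prolyl isomerase, and Ero1b (-0.62), an oxidase that recharges the disulphide isomerases. Between the genotypes in room air 6 were lower in the knockout and 1 was higher, 15% and 2.5% of the list beside 2.96% and 4.09% of all genes. The largest differences were those of Fkbp14 (-1.32), the collagen chaperone Serpinh1 (-1.29), the collagen prolyl hydroxylase subunit P4ha2 (-0.87) and Plod1 (-0.69), a collagen lysyl hydroxylase. In knockout lung under hypoxia 4 rose, 10% of the list beside 4.96% of all genes, and none fell, led by Serpinh1 (0.93 ± 0.17, adjusted p = 0.0038, limma).

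The genes that sense and relay ER stress, 18 measured, had no call under hypoxia in wild type, a median of -0.12 and a range of mean deviation by array of -0.09 to 0.16 over all 12 lung arrays. Between the genotypes in room air, Creb3l3, a liver-enriched transcription factor, was higher in the knockout (1.52, adjusted p = 0.024, limma) and Wfs1, an ER membrane protein, was lower (-0.57, adjusted p = 0.039, limma). The apoptosis effector Bak1 rose in knockout lung under hypoxia (0.73, adjusted p = 0.026, limma). Of 21 measured genes of ER-associated degradation, Erlec1, an ER lectin, rose under hypoxia in wild type (0.48, adjusted p = 0.040, limma) and none passed in the other comparisons. Of 31 translocon and glycosylation genes, Ssr4 rose in the same comparison (0.51, adjusted p = 0.0060, limma). Each gene named in this paragraph was the only call of its list in its comparison and direction. Over all genes 7.48% rose and 4.32% fell under hypoxia in wild type, and 4.96% rose in knockout lung. In room air 4.09% were higher in the knockout and 2.96% lower.

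Targets of ATF4, the factor made when the sensor kinase PERK slows translation, numbered 28. Under hypoxia in wild type the serine synthesis enzyme Psat1 rose (0.92, adjusted p = 0.00088, limma), and the cystine transporter Slc7a11 (-1.08) and Cebpg (-0.37) fell. That is 1 of 28 higher and 2 lower, where 7.48% of all genes were higher and 4.32% lower. In knockout lung 3 rose, among them Psat1 (1.22), and 2 fell, among them Atf3 (-1.39), a stress-induced transcription factor. Over all genes 4.96% rose there and 3.82% fell. Between the genotypes in room air, 4.09% of all genes were higher in the knockout and 2.96% lower. Of the ATF4 targets, Atf3 (1.15) and Gpt2 (0.73) were higher there and Slc7a11 (-0.98) was lower. Hepatocyte markers, 36 of 37 of which fell in knockout lung under hypoxia, moved in the same direction as Atf3 in both comparisons that use KO normoxia, and their part in these values was not tested.

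Genes with the ER stress element in their promoter window numbered 37 over the whole table, and 12 were measured in lung, 5 of them chaperones of the set. Of the other 7, Ero1b (-0.62) and Hnrnpa3 (-0.45), an RNA-binding protein, fell under hypoxia in wild type and Spats2l rose (1.02). Over all genes 4.32% were lower and 7.48% higher in that comparison. Alg12, which shares the Creld2 match, was lower in the knockout in room air (-0.55, adjusted p = 0.028, limma) and was at -0.21 under hypoxia in wild type (adjusted p = 0.35, limma). In room air Alg12 was the only 1 of the 7 to pass, where 2.96% of all genes were lower. The median of these 7 was -0.31 under hypoxia in wild type, beside 0.00 to 2 decimals over all genes. Between the genotypes in room air it was -0.37, beside -0.02. Pdia4, whose window held neither string, had estimates of -0.50 and -0.59 in the same comparisons.

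In the cultured cells, 8 of the 9 probes were detected on 6 of 6 arrays. Manf was detected on none, so 7 genes were tested. The labelled cell type was checked against 14 endothelial markers. Only Eng, Egfl7 and Ramp2 were detected on all 6 arrays, 8 markers, among them Cdh5, Tek, Tie1 and Vwf, were detected on none, Kdr and Plvap were detected on 5, and Pecam1 was detected on 1, with raw signals of 38.7 to 49.8 against 3240 to 5443 in lung. Fibroblast markers were detected on all 6 arrays in 8 of 10 genes, including Col1a1 and Col1a2, and smooth muscle markers in 5 of 8, among them Acta2, whose raw signals were 32996 to 41407, while Myh11 and Cnn1 were detected on none.

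Hspa5 was dim in these cells, with raw signals of 184 to 233 on arrays whose median probe lay between 52.3 and 59.4. In lung the same probe read 7683 to 15881 at array medians of 126 to 152. The Hsp90b1 probe read 6729 to 7780 in the cells and 13538 to 20349 in lung, and the Calr probe 581 to 1061 in the cells and 470 to 1502 in lung. These raw signals of lung and cells were not normalized together and are a description with no test.

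None of the 7 genes passed with rIL-4 in limma, against 1.67% of the 9017 genes tested in the cells. At an unadjusted p under 0.05 there was 1 of 7, against 11.2% of all genes. It was Calr, which had 9.54, 9.55 and 10.13 with vehicle and 9.38, 9.42 and 9.06 with rIL-4, a change of -0.45 ± 0.16 (adjusted p = 0.28, limma). Hspa5 had 7.28, 7.40 and 7.36 with vehicle and 7.48, 7.57 and 7.57 with rIL-4, at 0.19 ± 0.10 (adjusted p = 0.54, limma) and a 95% interval of -0.03 to 0.41. Creld2 was at -0.05, with an interval of -0.28 to 0.18, and Hyou1 at -0.13, with an interval of -0.45 to 0.18. The median over the 7 genes was -0.05, beside -0.01 over all genes.

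**Figure D5:**
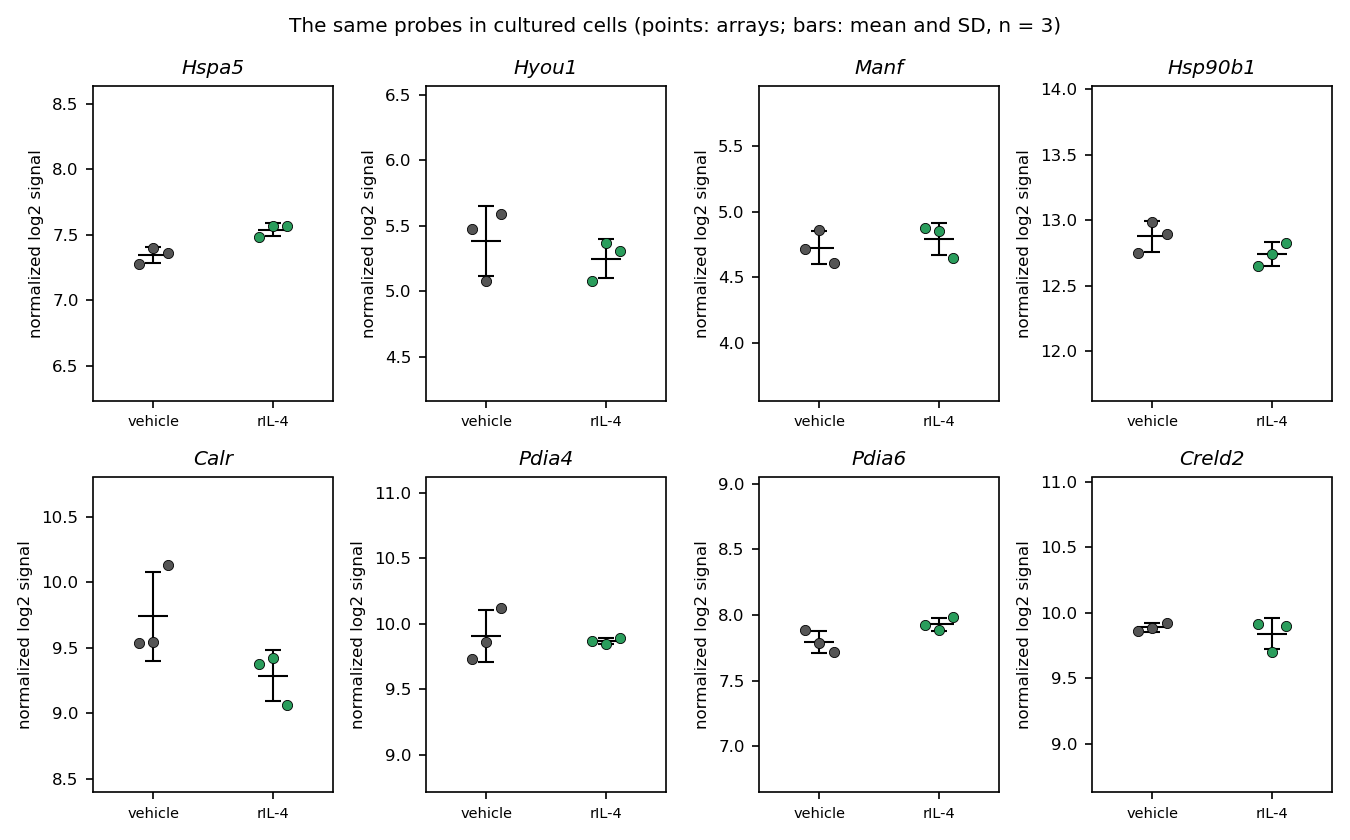
Normalized log2 signal of the 8 chaperone genes (vertical axis, a span of 2.4 log2 units in each panel) in cells treated with vehicle or rIL-4, with 1 point per array and the mean ± SD of 3 arrays. None of the 7 tested genes passed with rIL-4, and the Manf probe, with group means of 4.73 and 4.79, was not detected on any of the 6 arrays.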

How the data were processed

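Illumina mouse bead arrays measured 12 lung samples and 6 PMVEC samples, with RNA extracted by Trizol and columns, per the labels' protocols. The submitters' processing notes name BeadStudio and give no version. The authors deposited intensities with the detection p-value of each of 25697 probes, not normalized, and a log2 table in which each array is shifted to a common median of 8. The log2 table matched the lung signals for every probe within 0.02 but not for 7582 probes in PMVEC, 0 of them probes of the chaperone set, and it served as an alternative.

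Signals were processed with limma 3.58.1 in R 4.3.3. Lung and PMVEC signals went separately through neqc, which corrects background by way of the detection p-values, adds an offset (16 here), quantile normalizes and takes log2. This shrinks the changes of dim probes. A probe entered the fit if its detection p was under 0.05 on 3 or more arrays (17112 lung probes, 11947 PMVEC probes), and each gene was represented by its brightest probe. The linear model (lmFit, eBayes) covered all 4 lung groups (8 residual degrees of freedom) or both PMVEC groups (4). Tests are two-sided, with Benjamini-Hochberg adjustment over the 12571 or 9017 genes and 0.05 as the threshold. The number of arrays, 3 a group, limits the precision. The procedure was tested on simulated data.

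A mean deviation is the average, over the genes of a list, of the log2 value minus that gene's mean over all arrays of its table. Genes named are all members, up to 4 passing genes of each list with the largest change, the 10 genes closest in pattern, and Il4, with the genes that share the promoter motif added afterwards. The members and lists were chosen with earlier results of these data known. Alternatives were other background corrections, scalings, offsets, filters, probe rules, array weights, a hepatocyte covariate, fits of the compared groups only, and leaving out arrays. Probe chips and array positions were not given in the sources used here.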

Additional observations from a re-analysis of the deposited data

How the results depend on the processing

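The count of chaperone genes that passed was 3 or 4 of 8 under hypoxia in wild-type lung over 24 settings, and 0 in every setting run under hypoxia in knockout lung, between the genotypes under hypoxia and with rIL-4. In the interaction it was 0, with 1 (Creld2) under array weights and a range of 0 to 1 on leaving out each array, the 1 being without WT normoxia 3 (Creld2 1.10, adjusted p = 0.031). Between the genotypes in room air it was 4, with 7 under array weights, 2 with only the compared groups, 0 with the hepatocyte covariate, 1 without both KO normoxia 1 and 2 (chosen after seeing the data), and 2 to 4 on leaving out each array. In that comparison Hspa5 passed in 23 of 24 settings, Creld2 in 23 of 25, Hyou1 in 19 of 24 and Manf in 10 of 24, all with negative estimates. With the hepatocyte covariate, which overlaps with that comparison, these 4 estimates were further below 0 than in the main fit. The cause of the losses was not tested. No called value changed sign. Uncalled estimates changed sign in 10 of 193 cases under hypoxia in knockout lung, 9 of 193 between the genotypes under hypoxia and 7 of 106 with rIL-4. No paired analysis was possible because the lung groups hold different animals and the array numbers of the 2 experiments name no shared source. Signal over background limits Hyou1 in the cells and leaves Manf there unmeasured.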
